A study of Mus musculus with 12 samples.

Results

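The Ifi200 genes form a family of DNA sensors in the mouse. Of the 6 genes chosen by symbol (Ifi202b, Ifi203, Ifi204, Mndal, Pyhin1 and Aim2), 5 had a row in the gene count files and were described across all 12 tumor libraries. They are 5 of 32288 rows per library and 5 of the 18804 genes tested. Pyhin1 is not described under its own symbol, and RefSeq gives that name as a synonym of Ifi209, which is reported here with the other genes of the cluster.

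Proteins of this family, also called PYHIN or HIN-200 proteins, combine a pyrin domain, which binds other pyrin domains, with a HIN domain, which binds double-stranded DNA. AIM2 binds DNA in the cytosol and recruits ASC and caspase-1 into an inflammasome, while other members are found largely in the nucleus and act on transcription and on the STING pathway. The genes lie in a cluster on mouse chromosome 1 and are known as interferon-stimulated genes in macrophages and other hematopoietic cells.

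Each library was made from 1 tumor of murine P815 mastocytoma, a mast cell tumor line, grown under the skin of DBA/2 mice. P815-IFNG tumors (P815-IFNγ in the sample labels) came from a single-cell clone with a light-switchable module, in which the EF-1α promoter drives the transactivator GAVPO together with blasticidin resistance and a 5×UAS promoter drives murine Ifng, Cxcl10 and hGluc. P815-M tumors came from a single-cell clone without this module, and both clones carry mRuby and firefly luciferase under EF-1α. Tumors received blue light in cycles of 12 h light and 12 h dark for 6 days or were kept dark, giving 4 groups of 3 mice (P815-IFNG light, P815-IFNG dark, P815-M light and P815-M dark). Each line is 1 clone, so a difference between the lines cannot be told apart from a difference between the clones, and whole tumors were sequenced, so fewer cells of a type and less RNA per cell cannot be told apart.

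The third replicates of P815-IFNG light and of P815-IFNG dark held 41473500 and 42338096 counts, and the other 10 libraries held 2211234 to 2946792. The 2 deep libraries, over 10000000 counts, are both P815-IFNG tumors, and their values are given apart from those of the 10 shallow libraries. The mitochondrial gene mt-Nd6, which lies alone among mitochondrial protein genes on its strand, took 3.56% and 3.85% of mitochondrial counts in the deep libraries and 29.0% to 47.9% in the others. The library kit marks the strand, a library counted on the strand opposite to the RNA would hold mainly the few reads that escape this marking, and the strand that was counted in each library was not tested. No exon of a member overlaps an exon on the opposite strand (0 bases). The transactivator's own row held 1040 to 79894 counts in the 6 P815-IFNG libraries and 0 to 4 in the 6 P815-M libraries, as the labels have it. Of the defining mast cell markers, Kit and Cpa3 were at 317 CPM (counts per 1000000) or above and 675 CPM or above in every library, Fcer1a was at 0 in 10 of 12 libraries and Ms4a2 was at 0 in 7.

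On GRCm38, in the GENCODE M21 annotation, the cluster lies in 1 region of chromosome 1, and the interval of Mndal overlaps that of Ifi203 and contains that of Ifi211. Aim2 (chr1:173350879-173466040, plus strand) lies at the end with the lowest coordinates. Ifi204 (chr1:173747293-173766943), Mndal (chr1:173849126-173942491), Ifi203 (chr1:173920407-173942672) and Ifi202b (chr1:173962568-173982744) follow on the minus strand. All 5 are protein coding. Ifi203 and Mndal share 37 bases of exon on the same strand, and Mndal shares 118 bases (3.25% of its exons) with the pseudogene Gm38050, also on the same strand. Family members also share sequence, and 10.7% of the 100-base windows in Ifi204 transcripts, 6.38% of those in Mndal and 2.84% of those in Ifi203 recur in another gene, against 0 in Ifi202b and Aim2. Counts of Ifi204 and Mndal are uncertain to that extent. The reads are from DBA/2 tissue and were aligned to mm10, and the effect of strain differences in this cluster was not tested.

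The promoters of the cluster are shown because these genes are known to respond to interferon through short elements close to the start. RefSeq windows of 300 bases (GRCm38.p6, 250 before the start and 50 after it) were available for 12 of the 13 cluster genes, Ifi204 being without one. The Mndal windows (chr1:173879909-173880208 and chr1:173880138-173880437) lie inside the GENCODE interval of Mndal given above and not at its upper end. They were searched on both strands for the core of the interferon-stimulated response element (ISRE), GAAA followed after any 2 bases by GAAA, and for the gamma-activated site (GAS), TTC followed after any 3 bases by GAA. For each gene with a match except Ifi206 and Ifi213, 1 stretch that carries it is printed 5′ to 3′ on the strand of the gene, with the match in capitals.
Ifi203 (chr1:173942493-173942552, minus strand): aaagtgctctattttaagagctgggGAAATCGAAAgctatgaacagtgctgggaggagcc
Mndal (chr1:173880189-173880248, minus strand): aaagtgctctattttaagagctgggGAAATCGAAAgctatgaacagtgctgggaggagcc
Ifi207 (chr1:173741816-173741875, minus strand): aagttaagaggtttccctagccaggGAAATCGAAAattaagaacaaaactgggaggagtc
Ifi208 (chr1:173673582-173673641, plus strand): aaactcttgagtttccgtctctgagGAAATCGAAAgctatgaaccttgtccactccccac
Ifi214 (chr1:173536002-173536061, minus strand): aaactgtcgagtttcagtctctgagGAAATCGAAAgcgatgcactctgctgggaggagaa
Ifi211 (chr1:173913049-173913108, minus strand): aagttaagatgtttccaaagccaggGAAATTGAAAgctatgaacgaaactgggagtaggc
Ifi205 (chr1:174031855-174031914, minus strand): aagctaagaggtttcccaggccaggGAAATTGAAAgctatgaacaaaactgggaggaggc
Ifi202b (chr1:173982959-173983017, minus strand): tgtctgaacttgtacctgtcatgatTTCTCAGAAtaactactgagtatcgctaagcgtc

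The ISRE core was present in windows of 9 of these 12 genes, against 3.44% of all 32851 windows. The 12 genes had 14 windows, and a gene was counted if any of its windows held the core. The genes are relatives with similar promoters, so these matches are not independent. Among the members the core was found for Ifi203, 35 bases before the start, and for Mndal, 36 bases before the start of 1 of its windows, with the letters GAAATCGAAA in both. The other Mndal window held the core on the opposite strand, as TTTCTCTTTC. The Ifi203 and Mndal sequences were identical over 94 of 94 compared bases around the match. GAAATCGAAA, a string chosen after the windows were seen, occurred in 16 windows of 32851 (0.0487%), and 7 of these belong to the Ifi200 cluster (Ifi203, Mndal, Ifi206, Ifi207, Ifi208, Ifi213 and Ifi214). Ifi211 and Ifi205 had GAAATTGAAA in its place, and Ifi205 also held TTTCACTTTC after its start. Ifi202b had no ISRE core and 1 GAS match, TTCTCAGAA, 148 bases before the start, and the GAS motif was present in 8.30% of all windows. The Aim2 window held neither motif.

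Ifi202b was the most abundant member for its length in every group. Over the 10 shallow libraries its level was 22.6 ± 12.9 CPM per kilobase of exon (SD, n = 10), followed by 4.50 ± 3.01 for Ifi204, 1.86 ± 0.897 for Ifi203, 1.28 ± 0.761 for Aim2 and 0.407 ± 0.452 for Mndal. Ifi202b exceeded Ifi204, and Ifi204 exceeded Ifi203, in 12 of 12 libraries. The order of Ifi203 and Aim2 depended on the length used. Per kilobase of merged exons Ifi203 was the higher in 7 of 12 libraries and Aim2 in both deep libraries, and per kilobase of the longest transcript Ifi203 was the higher in 12 of 12. Aim2 exceeded Mndal in 11 of 12. Ifi202b alone took 45.6% to 61.5% of all counts assigned to the 5 members.

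**Figure D1:**
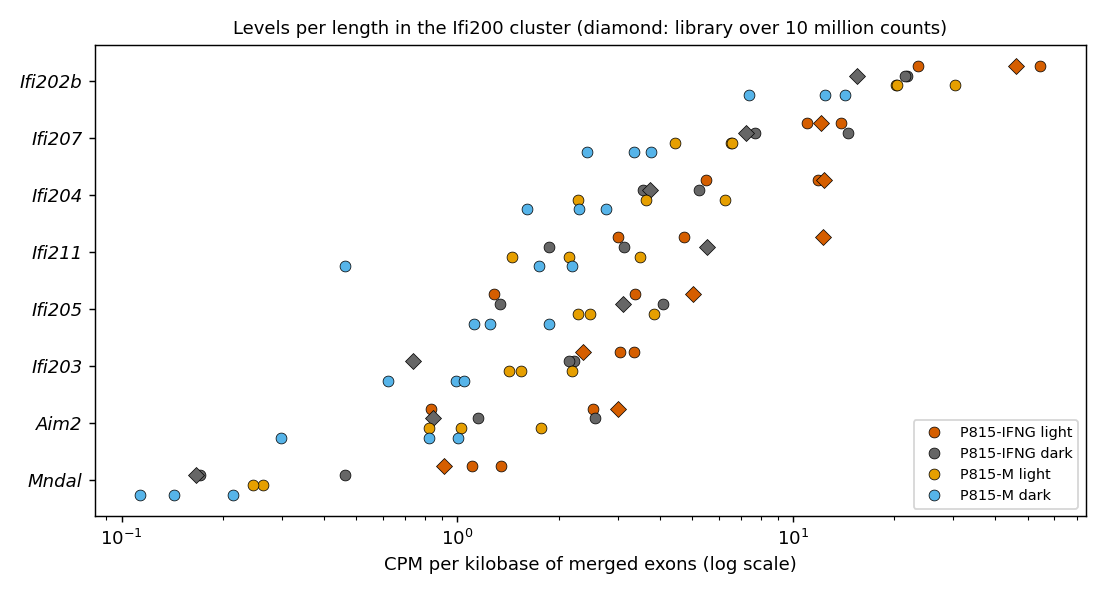
Levels of the 5 members and of Ifi207, Ifi211 and Ifi205 in each library, in CPM per kilobase of merged exons on a log axis, coloured by group, with diamonds for the deep libraries. Within each library Ifi202b lies farthest to the right, and the P815-M dark libraries lie toward the left for each gene. The P815-M light library with 0 counts of Mndal is not drawn.

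Over all 12 libraries Ifi202b, Ifi204, Ifi203 and Aim2 had their highest mean in P815-IFNG light and their lowest in P815-M dark. For Aim2 the first of these rested on the deep libraries, since over the shallow ones its mean was 5.89 CPM in P815-IFNG light and 6.51 CPM in P815-IFNG dark. Mndal was highest in P815-IFNG light and near the floor in both P815-M groups. Summed over the 5 members, the level was 170, 87.8 and 152 CPM in P815-IFNG light, 80.1, 69.4 and 48.2 CPM in P815-IFNG dark, 63.9, 56.02 and 93.02 CPM in P815-M light and 40.2, 23.96 and 44.4 CPM in P815-M dark (replicates in order, the deep library last in both P815-IFNG groups). Light and dark did not overlap in either line. The lines did not overlap in the dark, with or without the deep library, whose 48.2 CPM was the lowest P815-IFNG value. No P815-M library was deep, so between the lines a deep library is set against shallow ones alone. The P815-IFNG light and P815-M light groups overlapped, since the second P815-IFNG light tumor lay below the third P815-M light tumor.

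**Figure D2:**
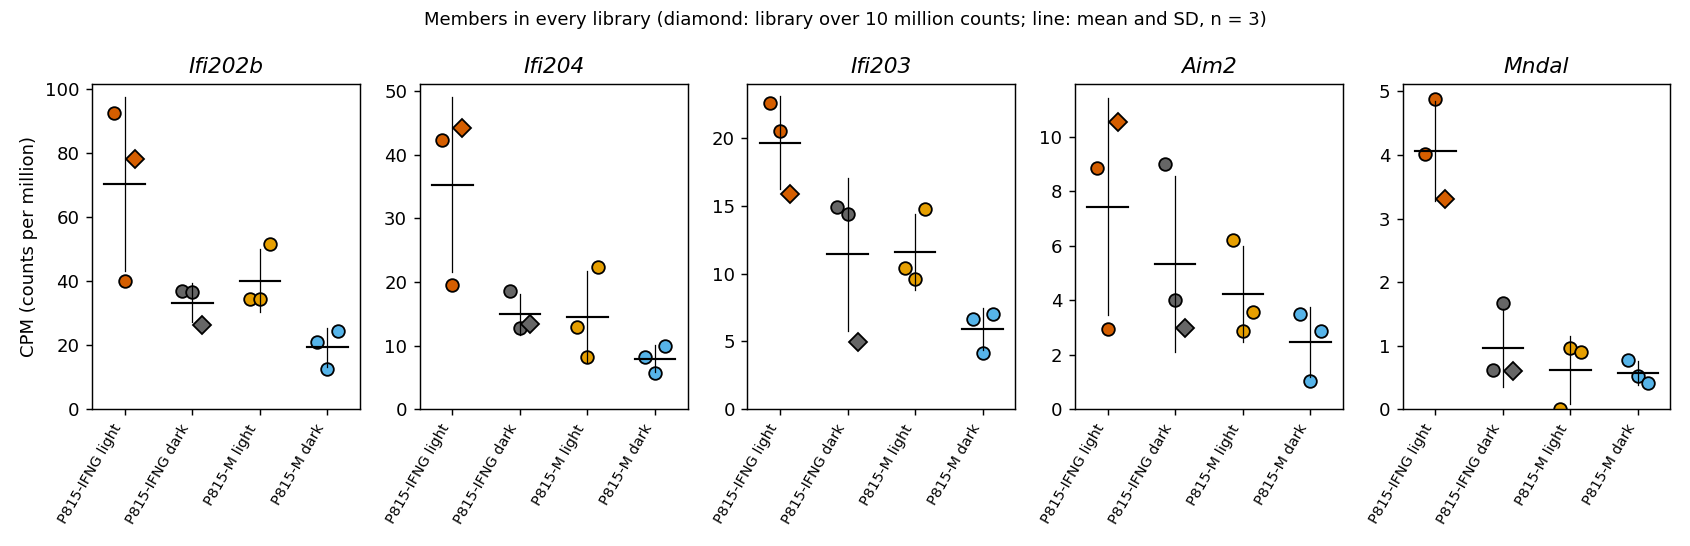
CPM of each member in every library, by group, on an axis that starts at 0, with diamonds for the deep libraries and lines for the mean and SD (n = 3). Ifi202b ranges from 12.5 CPM in a P815-M dark tumor to 92.5 CPM in a P815-IFNG light tumor, and Mndal is above 3 CPM in the P815-IFNG light tumors alone.

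Ifi202b encodes p202, which has a pair of HIN domains and no pyrin domain and is known to hold back AIM2 inflammasomes; its level is known to differ between inbred strains. It stood at 92.5, 40.0 and 78.0 CPM in P815-IFNG light and at 36.9, 36.5 and 26.3 CPM in P815-IFNG dark. In P815-M tumors it stood at 34.3, 34.5 and 51.4 CPM in light and at 21.1, 12.5 and 24.3 CPM in the dark. Light exceeded dark without overlap in both lines, by 1.12 ± 0.27 on the log2 scale in P815-IFNG (SE, adjusted p = 0.162) and by 1.04 ± 0.30 in P815-M (adjusted p = 0.108), both from edgeR's quasi-likelihood test. The lines differed by 0.86 ± 0.30 in light (adjusted p = 0.252) and by 0.78 ± 0.31 in the dark (adjusted p = 0.204), P815-IFNG being the higher, with overlap in light and none in the dark. None of these passed the threshold, an adjusted p of no more than 0.05 together with a log2 fold change of 1 or more in either direction.

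Ifi204 encodes p204, a nuclear and cytosolic DNA sensor that acts through STING. It was at 42.2, 19.5 and 44.1 CPM in P815-IFNG light and at 18.6, 12.7 and 13.4 CPM in P815-IFNG dark. All light tumors were above all dark ones, the second by little. The P815-M tumors gave 12.98, 8.14 and 22.4 CPM in light and 8.20, 5.73 and 9.88 CPM in the dark, and these groups overlapped. The fitted differences between light and dark were 1.27 ± 0.33 (adjusted p = 0.179) in P815-IFNG and 0.86 ± 0.40 (adjusted p = 0.376) in P815-M. Between the lines they were 1.23 ± 0.37 in light (adjusted p = 0.173) and 0.82 ± 0.39 in the dark (adjusted p = 0.309).

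Ifi203 encodes a pyrin and HIN domain protein of the nucleus. Its levels were 22.5, 20.5 and 15.9 CPM in P815-IFNG light, and 14.9, 14.4 and 4.93 CPM in P815-IFNG dark. The deep library was the lowest of its group in both. In P815-M tumors the gene was at 10.4, 9.58 and 14.8 CPM in light and at 6.64, 4.17 and 6.996 CPM in the dark. Light was above dark without overlap in both lines, with log2 differences of 0.98 ± 0.31 (adjusted p = 0.318) and 0.95 ± 0.37 (adjusted p = 0.266). Ifi203 was also higher in P815-IFNG than in P815-M without overlap in light, by 1.11 ± 0.35 (adjusted p = 0.198), while in the dark the deep P815-IFNG library fell inside the P815-M range (1.08 ± 0.36, adjusted p = 0.125).

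Mndal encodes a relative of the human myeloid nuclear differentiation antigen. It had 10, 10 and 143 counts in P815-IFNG light, or 4.02, 4.88 and 3.31 CPM, and 2, 5 and 27 counts in P815-IFNG dark, or 0.621, 1.68 and 0.603 CPM. Light and dark did not overlap (2.16 ± 0.70, adjusted p = 0.343). The P815-M tumors had 0, 2 and 2 counts in light and 2, 1 and 1 in the dark, at or under the floor of 3 counts per library, so no fold change between them is given. Over the shallow libraries, Mndal had 20 counts in 2 P815-IFNG light tumors and 4 counts in 3 P815-M light tumors, a CPM ratio of 6.89 with an exact 95% interval of 2.31 to 27.7. In the dark the counts were 7 and 4 and the ratio was 1.95, with an interval of 0.495 to 9.08. These intervals cover counting error only. The adjusted p for Mndal between the lines was 0.194 in light and 0.739 in the dark.

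Aim2, the inflammasome sensor, was the member whose groups overlapped in each comparison. Its levels were 8.85, 2.93 and 10.5 CPM in P815-IFNG light and 8.999, 4.02 and 2.97 CPM in P815-IFNG dark. In P815-M tumors they were 6.23, 2.87 and 3.58 CPM in light and 3.51, 1.04 and 2.88 CPM in the dark, from 2 to 12 counts. Its fitted differences between light and dark were 0.65 ± 0.55 (adjusted p = 0.813) in P815-IFNG and 0.71 ± 0.67 (adjusted p = 0.724) in P815-M. Without the third P815-IFNG light tumor, a deep library, the first of these was -0.13. The differences between the lines were 0.95 ± 0.65 in light and 1.01 ± 0.64 in the dark (adjusted p = 0.636 and 0.473).

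**Figure D3:**
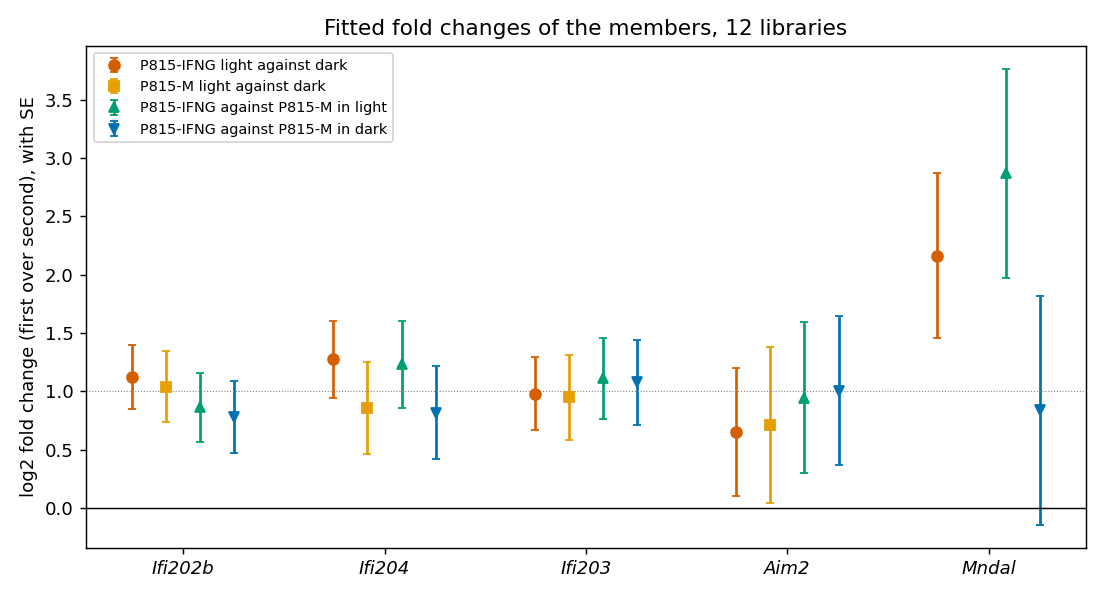
Fitted log2 fold changes of the members in the 4 comparisons over 12 libraries, with their standard errors; the dotted line marks a log2 fold change of 1. All points lie above 0 and no member passes the threshold. Mndal in P815-M light against dark is left out because its counts are at or under the floor.

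Light against dark in P815-IFNG tumors asks what the induced module and the light did together. None of the 5 members was called, against 2 of 18804 genes (0.0106% of genes tested), while 4 of 5 members (all but Aim2) were at an unadjusted p under 0.05 in the direction of light, against 4.14% of genes tested. For 4 of 5 members every light tumor exceeded every dark tumor, against 0.994% of genes tested. For a single gene, 3 tumors against 3 give an exact two-sided permutation p of 0.1 at the least, and each of these 4 members gave that value (0.2 after Benjamini-Hochberg adjustment over 20 such tests). The median log2 fold change of the members was 1.12, or 1.05 without Mndal, against -0.03 over all genes tested.

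The same contrast in P815-M tumors, which carry no module, gives the difference between light and dark without it. No member was called, against 194 genes (1.03%), and Ifi202b, Ifi203 and Ifi204 were at an unadjusted p under 0.05, against 7.47% of genes tested in the same direction. Ifi202b and Ifi203 did not overlap between light and dark, against 10.1% of genes tested. The median was 0.86, or 0.90 without Mndal, against 0.01 over all genes. The difference between the lines in the light effect was 0.08 ± 0.41 for Ifi202b, 0.03 ± 0.48 for Ifi203, 0.41 ± 0.51 for Ifi204 and -0.06 ± 0.85 for Aim2, with adjusted p between 0.941 and 1. An effect of light specific to the line with the module was thus not detectable for these 4 members, and the SEs do not show that the effects were alike. Across all genes 3 were called for this difference (0.016%).

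P815-IFNG against P815-M tumors gave no called member in light, against 82 genes (0.436%), and none in the dark, against 290 genes (1.54%). Ifi202b, Ifi203, Ifi204 and Mndal were at an unadjusted p under 0.05 in light, against 5.27% of genes tested in that direction, and Ifi202b and Ifi203 were so in the dark, against 9.24%. Ifi203 and Mndal did not overlap between the lines in light (9.23% of genes tested), and Ifi202b and Ifi204 did not in the dark (10.9%). Over the 10 shallow libraries the number in the dark was 4 of 5, all but Mndal, against 18.6% of genes tested. The median was 1.11 in light and 0.84 in the dark, or 1.03 and 0.91 without Mndal, against 0.02 and 0.06 over all genes. Both deep libraries are P815-IFNG tumors. With the term for them, the fitted differences between the lines rest mainly on the 10 shallow libraries. The overlaps over 12 libraries have no such term and set deep P815-IFNG libraries against shallow P815-M ones. The comparisons of the lines share their groups with those of light and dark, so the 4 sets of values are not independent.

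The calls of Ifi202b and Ifi204 differed between fits. ComBat-seq rescales counts by batch, and the study applied it without naming its batches. Here the deep libraries were assumed to be a batch and the shallow ones another. The groups were given to ComBat-seq, and the adjusted counts were then fitted without a term for the batch. The p-values of that fit leave out the uncertainty of the adjustment. After ComBat-seq, Ifi202b and Ifi204 were both called in P815-IFNG light against dark, with log2 fold changes of 1.17 (adjusted p = 0.00796) and 1.37 (adjusted p = 0.00428), among 157 genes called. DESeq2 called Ifi202b alone (1.15, adjusted p = 0.0441), among 54 genes. Ifi204 was also called between the lines in light after ComBat-seq (1.28, adjusted p = 0.0127), among 262 genes. Over the 10 shallow libraries, Ifi202b was at 0.85 and Ifi204 at 0.98 in P815-IFNG light against dark, neither called (adjusted p = 0.423 and 0.437). In that set of libraries Ifi203 was called between the lines in the dark (1.28, adjusted p = 0.0485), among 371 genes.

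The deep light and dark libraries alone, 1 tumor each and without a test, differed by 1.56 for Ifi202b, 1.71 for Ifi204, 1.64 for Ifi203, 1.76 for Aim2 and 2.11 for Mndal on the log2 scale. The second P815-IFNG light tumor was the lowest of its group for Ifi202b, Ifi204 and Aim2. Without it Ifi202b was at 1.44 (adjusted p = 0.00675) and Ifi204 at 1.57 (adjusted p = 0.0302) in light against dark, both called, among 52 genes called in that fit. Between the lines in light, the same 2 genes were then at 1.28 (adjusted p = 0.0249) and 1.63 (adjusted p = 0.0381), among 161 genes called, and Ifi202b in P815-M light against dark was at 1.04 (adjusted p = 0.0274), among 231. Other removals lowered the values. Without the first P815-IFNG light tumor Ifi202b was at 0.84 in P815-IFNG light against dark and at 0.53 between the lines in light. Without the third P815-IFNG light tumor Ifi204 was at 0.98 in light against dark. Without the third P815-M light tumor, Ifi202b was at 0.82 and Ifi204 at 0.39 in P815-M light against dark. All of these were under 1 and not called. Without the third P815-IFNG dark tumor, a deep library, Ifi203 was at 0.54 in light against dark and was called between the lines in the dark (1.29, adjusted p = 0.0464), among 444 genes.

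**Figure D4:**
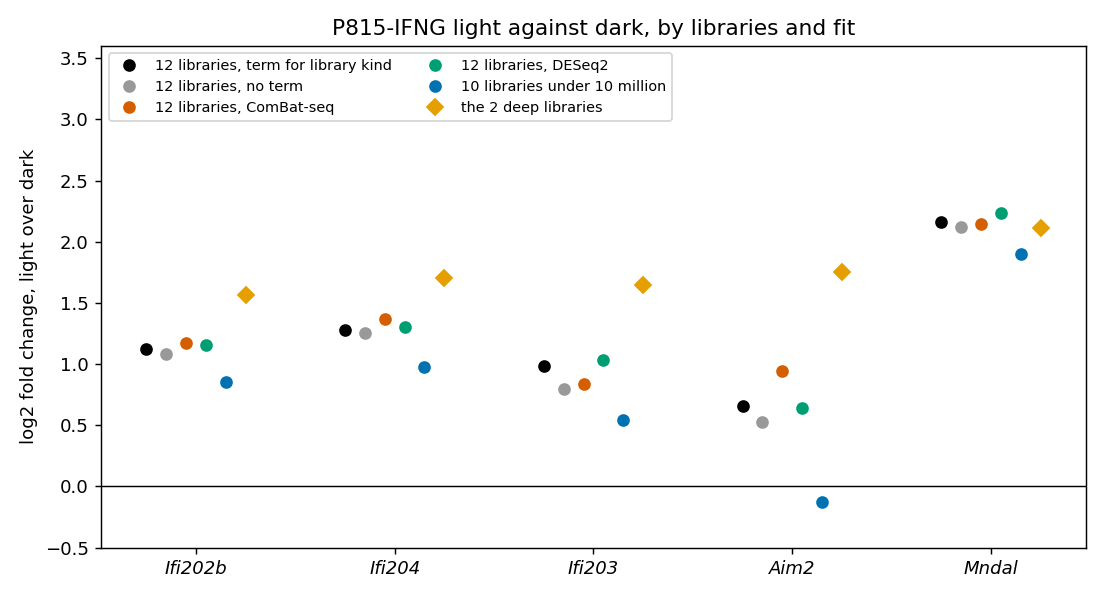
Log2 fold changes of the members in P815-IFNG light against dark under 5 fits over replicated libraries and for the 2 deep libraries alone (diamonds, no test). All values are above 0 except that of Aim2 over the 10 shallow libraries, at -0.13.

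Of the other genes of the cluster, 8 were in the files and 7 had a total of at least 10 counts. Ifi207, a long pyrin and HIN domain protein gene with the decamer printed above, was the most abundant of them. It was at 47.5, 37.6 and 41.3 CPM in P815-IFNG light, 26.4, 49.9 and 24.8 CPM in P815-IFNG dark, 22.3, 22.5 and 15.2 CPM in P815-M light and 12.9, 8.33 and 11.5 CPM in P815-M dark. All P815-IFNG tumors lay above all P815-M tumors under the same condition. Ifi207 was the only gene of the cluster called, in P815-IFNG against P815-M in the dark (1.68 ± 0.29, adjusted p = 0.00469), and in light the difference was 1.21 ± 0.28 (adjusted p = 0.0578). Between light and dark it stood at 0.38 ± 0.24 in P815-IFNG, with overlap, and at 0.85 ± 0.30 in P815-M, without overlap.

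Ifi205 was at 14.1, 5.37 and 20.9 CPM in P815-IFNG light and 5.59, 17.1 and 13.02 CPM in P815-IFNG dark, with overlap, and light exceeded dark without overlap in P815-M (9.58 to 16.1 against 4.68 to 7.82 CPM). The corresponding log2 differences were 0.18 ± 0.40 and 1.03 ± 0.46 (adjusted p = 0.952 and 0.365). Ifi211 shares 56.9% of its 100-base windows with other genes, including Ifi204, and its counts are uncertain for that reason. Its log2 differences were between 0.66 and 0.86 in the 4 comparisons, with no call. Ifi209, the gene listed with the synonym Pyhin1, had 82 counts in the deep light library, 21 in the deep dark library and 0 to 6 in each of the shallow ones. Ifi206, Ifi208, Ifi213 and Ifi214 were near or under the floor in most libraries and are given no fold change. The 4 members other than Mndal, which had no usable value in P815-M light against dark, had fitted values above 0 in all 4 comparisons, against 2 of the 7 other cluster genes tested and 10.9% of all genes tested. The 2 were Ifi207 and Ifi211, and Ifi205 was below 0 only between the lines in light, at -0.09. The rest of the 7 (Ifi208, Ifi209, Ifi213 and Ifi214) had few counts in the shallow libraries, so their signs carry little.

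AIM2 works with ASC, inflammatory caspases and guanylate-binding proteins. Of 15 tested genes of this inflammasome list, 1 was called in any comparison, Gbp5, a guanylate-binding protein induced by IFNG. Gbp5 was 1.96 ± 0.43 higher on the log2 scale in P815-IFNG than in P815-M in light (adjusted p = 0.0436), at 10.05 to 125 CPM against 22.4 to 26.5 CPM, with overlap through the deep library. In P815-IFNG light against dark it was at 1.81 ± 0.39 (adjusted p = 0.133). The medians of the list were 0.59 and 0.39 for light against dark in P815-IFNG and P815-M, and 0.81 and 0.82 for the lines in light and in the dark.

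The cytosolic DNA sensing list, with the cGAS and STING route and nucleases that restrain it, had 0 of 14 tested genes called in each of the 4 comparisons by edgeR. At an unadjusted p under 0.05, 4, 3, 4 and 3 of them were higher in the order used above, against 4.14%, 7.47%, 5.27% and 9.24% of genes tested, and 2, 0, 1 and 1 were lower. The list medians were 0.16, 0.23, 0.26 and 0.20 in that order. Samhd1, a dNTP hydrolase and the most abundant of the list, was at 0.87 ± 0.26 and 1.05 ± 0.27 in light against dark. Between the lines it was at 0.73 ± 0.28 and 0.91 ± 0.28, close to the values of Ifi202b and not called (adjusted p from 0.0608 to 0.306). The next most abundant genes differed from this. Irf7 was at 0.73, -0.09, 0.27 and -0.55, and Ripk3 was at -0.54, -0.28, -0.33 and -0.06. Of 14 interferon receptors and factors, Ifngr1, a chain of the IFNG receptor, was called in P815-IFNG against P815-M in the dark (1.23 ± 0.24, adjusted p = 0.00883).

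Ifng and Cxcl10, the cytokines of the module, had few counts in most libraries in the rows of the mouse genes. The inserted cassette holds murine Ifng and Cxcl10 and has a row of its own. How reads that match both were counted was not tested, so these rows may not hold all transcripts of the module. Ifng had 37, 4 and 76 counts in P815-IFNG light and 6, 3 and 30 in P815-IFNG dark, and 0 to 4 counts in the P815-M libraries. Cxcl10 had 97, 15 and 106 counts in P815-IFNG light, or 39.01, 7.32 and 2.45 CPM, and 19, 11 and 20 counts in P815-IFNG dark, or 5.90, 3.69 and 0.446 CPM, with 1 to 16 counts in the P815-M libraries. In CPM the first P815-IFNG light tumor was the highest for both genes, and the deep light library overlapped the dark tumors. The fitted differences in P815-IFNG light against dark were 2.07 ± 0.77 for Ifng (adjusted p = 0.459) and 2.33 ± 0.62 for Cxcl10 (adjusted p = 0.194), and neither was called. The row of the inserted cassette had 11, 6 and 228 counts in light and 9, 6 and 126 in the dark. Its light and dark CPM did not overlap in P815-IFNG (2.93 to 5.28 against 2.01 to 2.81 CPM), and the fitted difference was 0.74 ± 0.63 (adjusted p = 0.821).

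Members of this family are well expressed in macrophages, and macrophage levels were set beside theirs. Summed over 14 macrophage and monocyte markers, none of them at 0 in any library, the level was 950 to 2265 CPM in P815-IFNG light and 775 to 2103 CPM in P815-IFNG dark, with overlap, the deep libraries being the lowest. In P815-M it was 1813 to 2074 CPM in light and 831 to 1174 CPM in the dark, without overlap, and 14 of 14 markers had a value above 0, with a median log2 difference of 0.83 and calls for C1qa and Lyz2. Between the lines in the dark, C1qa, C1qb and C1qc were among the markers called higher in P815-IFNG, with a list median of 0.94. The summed levels overlapped there, through the deep library. In P815-M light against dark and between the lines in the dark, the members and the macrophage markers were thus both higher by their medians. In P815-IFNG light against dark and between the lines in light, the macrophage list medians were 0.08 and 0.17. Other cell type markers differed as well. In P815-IFNG light against dark, 0 of 8 skeletal muscle markers, 1 of 7 fibroblast markers, 1 of 6 endothelial markers and 1 of 10 dendritic cell markers had a value above 0, with list medians of -4.40, -0.63, -1.52 and -0.77. Of these genes Myh4, a muscle myosin, was called. Summed muscle markers were at 120 to 143 CPM in light and 157 to 675 CPM in the dark, without overlap, and the sums of the other 3 lists overlapped. Over all genes tested, 46.7% had a value above 0 in this comparison. The mast cell, T and NK cell, B cell and neutrophil lists had 2 of 11, 6 of 12, 3 of 6 and 5 of 7 tested markers above 0. Between the lines in the dark, 7 of 7 fibroblast markers (median 0.91, with Dcn and Lum called) and 6 of 6 endothelial markers (median 0.94) were above 0. The part of any of these markers in the members' differences was not tested.

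The summed level of the members, as a percentage of the summed level of the macrophage markers, was 7.51, 5.82 and 16.0 in P815-IFNG light and 3.81, 3.43 and 6.22 in P815-IFNG dark. In P815-M it was 3.08, 2.87 and 5.13 in light and 3.42, 2.88 and 3.86 in the dark. Among the shallow libraries the 2 P815-IFNG light tumors were above all others, and the P815-M light and dark tumors overlapped. This ratio was chosen after its parts were seen and carries no test. The mast cell markers had a summed level of 2071 to 2998 CPM over the 10 shallow libraries, against 12188 CPM for the deep light library and 9183 CPM for the deep dark one.

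**Figure D5:**
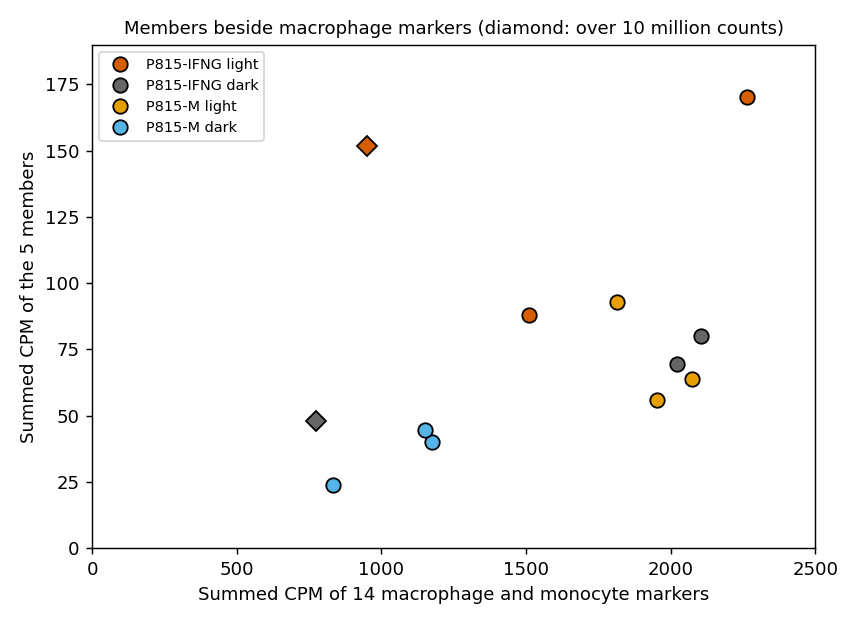
Summed CPM of the 5 members against the summed CPM of 14 macrophage and monocyte markers in each of 12 libraries, coloured by group, with diamonds for the deep libraries; both axes start at 0. The P815-M dark tumors are low on both axes, and the deep P815-IFNG light library has 152 CPM of the members at 950 CPM of the markers.

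The genes nearest in pattern were sought over the 10 shallow libraries, against the mean of the centred log2 CPM of Ifi202b, Ifi204 and Ifi203, the members with a mean of at least 5 CPM. The distance was the root mean square difference, whose median over 10017 ranked genes was 0.792. The 5 nearest genes were Tnfaip2 at 0.265, Samhd1 at 0.268, Ppp2r3d and Oasl2 at 0.287 and Ifit2 at 0.295. Oasl2 and Ifit2 are interferon-stimulated genes. The 3 members lay at 0.163 to 0.188 from the mean, which they make up, so these distances are not comparable with those of other genes. From each other the 3 members lay at 0.296 to 0.338.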

How the data were processed

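Gene counts of 12 single tumors were used. The authors trimmed the reads, aligned them with STAR 2.7.9a to mm10 with the knock-in sequences added, and counted them per gene with HTSeq 0.13.5 at default settings. The annotation release is not given in the sources used here. The deposited values are raw counts, without the ComBat-seq step of the study's methods. The sample labels give 6 days of illumination, and the paper's methods differ on its length.

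Without the 13 mitochondrial rows, 18804 genes reached a total of 10 counts and were tested in R 4.3.3 with edgeR 4.0.16 (TMM, quasi-likelihood test, Benjamini-Hochberg adjustment over all genes). The model had a mean per group and a term for the 2 libraries over 10000000 counts, in place of the study's ComBat-seq step. The paper does not name its batches, so this split of the libraries is an assumption. A gene was called when its adjusted p was no more than 0.05 and its log2 fold change was 1 or more in either direction. CPM are counts per 1000000 of the TMM-scaled library, and their precision follows from the totals, where 3 counts equal 0.0670 to 1.56 CPM. Single differences were tested by exact permutation. The labels number the single tumors of a group as biological replicates, and the paper's figure legends give 3 mice per group. All members were named, with the other cluster genes at 10 or more counts, the called or most abundant genes of each list and the nearest genes in pattern. The members and lists were chosen with earlier results of these data known, and the lists come from general knowledge. The fit was tested on simulated data. DESeq2 1.42.0, ComBat-seq from sva 3.50.0, other filters and scalings, subsets of libraries and a replicate block were alternatives. Promoters are RefSeq windows.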

Additional observations from a re-analysis of the deposited data

How the results depend on the processing

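In the report's order (light against dark in P815-IFNG, then in P815-M; the lines compared in light, then in the dark; the lines' difference in the light effect), 2, 194, 82, 290 and 3 genes were called. The numbers became 0, 0, 3, 2 and 0 without a term for the deep libraries, 157, 257, 262, 570 and 40 after ComBat-seq, 211, 429, 245, 640 and 203 without a filter on low counts, 54, 289, 86, 402 and 20 with DESeq2, and 1, 157, 39, 371 and 2 over the 10 shallow libraries. They were 1 in the first and 1 in the last comparison with edgeR's own filter, 1 in the last with DESeq2 size factors, and 441 in the dark without a minimum fold change. Leaving out each library in turn gave 1 to 52, 61 to 237, 29 to 161, 153 to 444 and 1 to 14.

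Of the 5 members 0 were called in the fit used for the report. In P815-IFNG light against dark this became 2 after ComBat-seq, 2 without a filter and 1 with DESeq2, and 0 to 2 when a library was left out. It became 1 in P815-M light against dark without a filter (0 to 1 with a library left out), 1 between the lines in light after ComBat-seq and 1 without a filter (0 to 2), and 1 between the lines in the dark over the 10 shallow libraries (0 to 1). DESeq2 gave no adjusted p for Mndal in light against dark. The median log2 fold change of the members moved to 1.71 in the 2 deep libraries alone. With a library left out it was 0.85 to 1.44, 0.69 to 1.07, 0.91 to 1.56 and 0.67 to 1.15 in the 4 comparisons, and -0.16 to 0.54 for the difference between the lines. Of 485 fold changes of single members under an alternative, 441 kept direction and call, 20 became called and 24 changed sign.

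The sign changes were those of Aim2 and of the small differences between the lines. Aim2 in P815-IFNG light against dark was at -0.13 over the 10 shallow libraries (-0.622 CPM) and between -0.13 and 1.23 with a library left out. The difference between the lines in the light effect was -0.17 for Ifi202b and -0.38 for Ifi203 over the 10 shallow libraries, -0.16 for Ifi203 without the term, and -0.076 for Ifi203 and 0.25 for Aim2 after ComBat-seq. With a library left out it was between -0.18 and 0.40 for Ifi202b, -0.38 and 0.25 for Ifi203 and -0.82 and 0.54 for Aim2. The cause of these changes was not tested. With the longest transcript in place of merged exons the level of Ifi203 was 3.33 CPM per kilobase, and it exceeded Aim2 in 12 of 12 libraries, against 7 of 12 with merged exons.

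With the replicate number as a block, 62, 282, 104, 367 and 16 genes were called, and 2, 1, 1 and 1 members in the first 4 comparisons (Ifi202b and Ifi204, Ifi202b, Ifi204, and Ifi202b). The numbers do not pair the tumors. Deviations of same-numbered P815-M light and dark tumors correlated at -0.03, 0.02 and -0.32 across genes, and the high values in P815-IFNG (0.81 to 0.95) went with the deep libraries. The shallow libraries set the limits, since Mndal and Aim2 had 0 to 29 counts in each.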
